A study of Homo sapiens with 4 samples.

Results

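The snoRNA host long non-coding genes GAS5, SNHG1, SNHG3, SNHG5, SNHG6, SNHG7, SNHG8, SNHG12, SNHG15 and SNHG16 were taken by gene name from tables of 51103 genes, and all 10 were found. Polyadenylated RNA came from SCC-15, a human cell line labelled as oral squamous cell carcinoma. The 2 control libraries carry the genotype label NC, described as negative control, and the 2 REEP6 libraries came from cells given a REEP6 lentivirus. Cells of all groups were lysed after 48 hours. REEP6 codes for a membrane protein of the endoplasmic reticulum. The labels name neither the promoter of the vector nor the control vector, and they do not say that libraries of a group came from separate cultures. The p-values below therefore speak to spread among these 4 libraries, which may be technical.

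Small nucleolar RNAs (snoRNAs) guide chemical changes in ribosomal RNA and take part in its cutting, and in human cells most of them are spliced out of the introns of other genes. In the genes described here the introns carry the snoRNAs, while the joined exons form a long transcript with little or no coding capacity. Several of these spliced transcripts are known to begin with a run of pyrimidines at the cap, as the mRNAs of ribosomal proteins do, and to be broken down by nonsense-mediated decay when ribosomes read them. GAS5 was found as a transcript that accumulates in growth-arrested cells, and many of the others have been studied as transcripts that are abundant in tumours.

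In GENCODE release 29, 22 snoRNA loci lay inside 9 of the host genes on the same strand, 12 named SNORD (box C/D) and 9 named SNORA (box H/ACA). SNHG1 held 7, SNHG12 held 4, SNHG16 held 3, SNHG3 and SNHG7 held 2 each, and SNHG5, SNHG6, SNHG8 and SNHG15 held 1 each. GAS5, known as a host of box C/D snoRNAs, held 0 loci by this count. A pair of each class is shown, because these intronic products are what the genes are named for, and because SNHG3 and SNHG7 were the members that passed the test. Capitals mark the letters TGATGA and CTGA of boxes C and D, or the ACA that stands 3 bases before the 3′ end. Of 943 genes of type snoRNA in that annotation, the deposited data held 0, so the levels of the snoRNAs themselves could not be analysed.
SNORA73A, in SNHG3, chr1:28507366-28507571, plus strand, GRCh38: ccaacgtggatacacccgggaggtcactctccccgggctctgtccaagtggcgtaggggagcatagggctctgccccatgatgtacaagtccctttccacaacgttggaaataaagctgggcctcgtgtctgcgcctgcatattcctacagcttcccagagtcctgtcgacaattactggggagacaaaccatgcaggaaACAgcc
SNORA17A, in SNHG7, chr9:136726747-136726879, minus strand, GRCh38: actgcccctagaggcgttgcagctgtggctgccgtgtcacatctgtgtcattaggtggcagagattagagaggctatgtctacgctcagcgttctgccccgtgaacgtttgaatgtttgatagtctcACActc
SNORD27, in SNHG1, chr11:62855012-62855083, minus strand, GRCh38: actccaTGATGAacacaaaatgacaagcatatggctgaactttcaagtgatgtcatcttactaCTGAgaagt
SNORD50B, in SNHG5, chr6:85677589-85677658, minus strand, GRCh38: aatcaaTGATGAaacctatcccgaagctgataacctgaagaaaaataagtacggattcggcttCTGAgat
The same letters at the same places were found in 64.6% of 288 SNORD transcripts and in 75.2% of 149 SNORA transcripts of that annotation. The snoRNAs shown were picked from those that have them. In these host genes SNORD22, SNORD26, SNORD28, SNORD99, SNORD1A, SNORD1C and SNORA44 did not have all of these letters at these places.

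The 5′ ends of the spliced transcripts are shown next, because the pyrimidine run is the feature these genes share with ribosomal protein mRNAs. A start was counted when the transcript opened with a C followed by at least 4 letters that were each C or T. Of 129 annotated transcripts of the 10 genes, 21 (16.3%) began this way, against 2.41% of 206694 transcripts of all genes. At least 1 such transcript was present in 8 of the 10 genes, and SNHG7 and SNHG15 had 0. Among genes with at least 3 transcripts, 17.1% had 1 or more. These genes were not matched to the host genes in number of transcripts, which ran from 3 (SNHG3) to 29 (GAS5). A gene with more transcripts has more starts that can be counted, so the shares of genes are not like for like. Below, the first 30 bases are given for the commonest such start in 7 of the 8 genes, with the run in capitals, and SNHG6, with 3 of 5 transcripts, is not shown.
GAS5: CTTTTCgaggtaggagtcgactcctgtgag
SNHG1: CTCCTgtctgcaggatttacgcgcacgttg
SNHG3: CCTTTTTggagacagattcgcagtggtcgc
SNHG5: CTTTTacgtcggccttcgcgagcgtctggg
SNHG8: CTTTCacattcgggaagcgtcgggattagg
SNHG12: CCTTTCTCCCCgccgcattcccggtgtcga
SNHG16: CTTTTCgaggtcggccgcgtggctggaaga
These are annotated ends. The counts cover whole genes and do not show which start or splice form was used in these cells.

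The libraries held 12856256 to 15208629 counts assigned to genes. The REEP6 gene gave 348 and 468 counts in control cells against 649 and 680 in cells given the virus, 1.76-fold more (edgeR adjusted p 0.00119), and both REEP6 libraries lay above both controls. The squamous label was checked against 12 markers, of which 3 (KRT8, KRT18 and EPCAM) reached the filter. KRT8 averaged 171 FPKM in the controls and 181 FPKM with REEP6 and was not called. KRT18 rose from 178 and 182 to 221 and 231 FPKM and was called higher (edgeR adjusted p 0.0123). EPCAM was 1.83-fold higher with REEP6 but was not called (edgeR adjusted p 0.0549). DESeq2 called 1 of these 3 higher and limma 0. KRT6A and DSG3 had 0 counts in every library, which allows up to 3 counts in each. KRT5, KRT14, KRT17 and CDH1 had between 0 and 6 counts. TP63 had 3 to 14 counts, SFN 1 to 3 and PKP1 0 to 4. The basal keratins that define squamous epithelium were therefore at or near 0. Of 10 fibroblast markers 4 reached the filter and all 4 fell. Their list summed to 34.5 to 36.6 FPKM in the controls and 18.1 to 18.3 FPKM with REEP6, with FAP at 0 counts and COL1A2, DCN and THY1 at 6 or fewer. PDGFRA, just under the filter, went the other way with 83 and 105 counts in control cells against 127 and 137 with REEP6, and was called higher when no filter or edgeR's own filter was used. Leukocyte and endothelial markers had 1 of 6 and 0 of 5 measured, and the part of any of these lists in the results below was not tested. In bulk RNA, fewer cells of a type and less RNA per cell cannot be told apart.

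All 10 host genes were expressed, and all passed the filter of at least 1 FPKM (counts scaled to gene length and to the library's total) in at least 2 libraries. Together they gave 14204 and 14577 counts in the controls and 15234 and 14574 with REEP6, or 0.0958% to 0.115% of each library. GAS5, which carries a hairpin known to bind the glucocorticoid receptor, was the most abundant per length. It held 101 and 95.3 FPKM in the controls and 90.7 and 94.2 FPKM with REEP6, above 97.6% of all genes tested, and gave 28.6% to 36.1% of the counts of the 10 genes. SNHG6, SNHG5 and SNHG8 followed with means of 64.2, 61.8 and 61.0 FPKM over the 4 libraries, and their ranges overlapped. SNHG1 (28.5 FPKM) and SNHG7 (27.6 FPKM) were not separated from each other either. SNHG3 (18.2 FPKM) came next, then SNHG15 (12.1 FPKM) and SNHG16 (11.0 FPKM), whose ranges overlapped. SNHG12 was the lowest in every library, at 3.54 to 4.63 FPKM, above 40.0% of the genes tested.

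**Figure D1:**
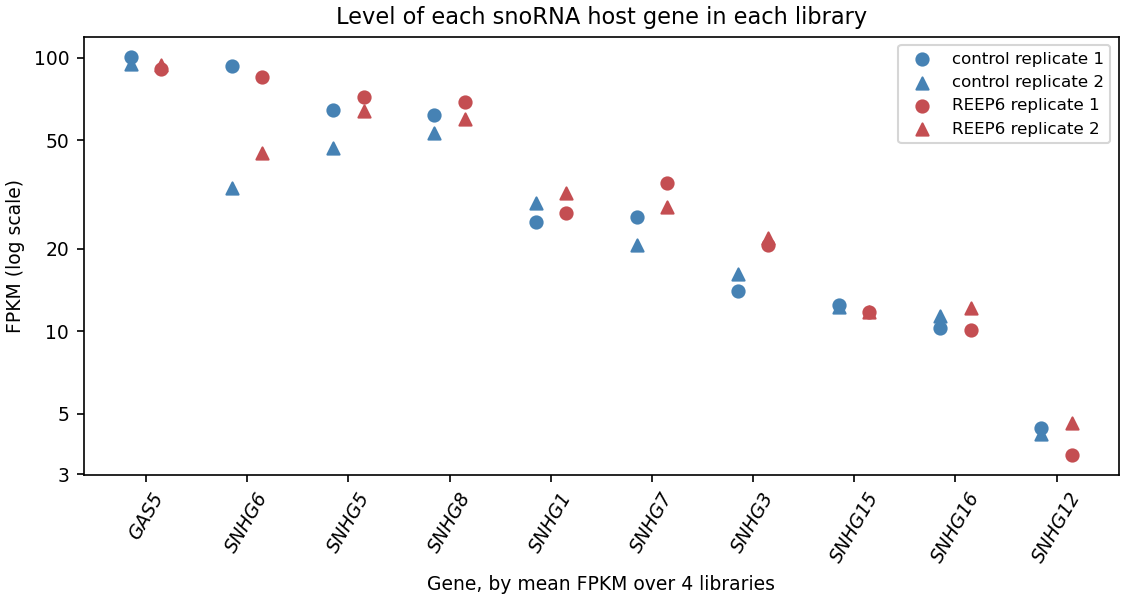
FPKM on a log axis for each of the 10 host genes in each library, with controls in blue, REEP6 libraries in red, replicate 1 as circles and replicate 2 as triangles. GAS5 sits near 100 FPKM in all 4 libraries, SNHG12 lies lowest, and the replicates of SNHG6 stand far apart in both groups.

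With REEP6 overexpression SNHG3 and SNHG7 were higher, and the other 8 host genes did not pass the test. By edgeR's quasi-likelihood test with Benjamini-Hochberg adjustment at 0.05, 2 of 10 were called in either direction, where 25.0% of the 13077 genes tested were. Both were higher (10.9% of all genes) and 0 were lower (14.2% of all genes). At an unadjusted p under 0.05, 3 host genes were higher (18.2% of all genes) and 0 lower (20.6%). DESeq2 called 2 higher and 0 lower (9.07% and 10.5% of all genes), and limma on log2(FPKM + 1) called 1 and 0 (4.85% and 9.73%). The median log2 fold change was 0.11 for the 10 host genes and -0.01 for all genes tested. With FPKM scaled to equal sums these medians became -0.03 and -0.14, and 5 instead of 7 host genes had a positive log2 fold change. Libraries of the groups did not overlap in FPKM for 4 of 10 host genes, against 63.5% of all genes tested.
The number called higher was 1 without control replicate 2 or REEP6 replicate 1, where 11.4% and 7.19% of all genes were higher, and 4 without control replicate 1 or REEP6 replicate 2 (10.7% and 8.47%). Without REEP6 replicate 1, 1 was lower, SNHG6, as were 9.73% of all genes. It was 1 with equal FPKM sums (5.05% of all genes), with a GC correction (9.23%), with limma on log2(FPKM + 0.1) (4.57%) and at an edgeR adjusted p of 0.01 (3.79% of all genes). A replicate block gave 4 (22.6%), and the block with a GC correction 6 (22.3%).

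**Figure D2:**
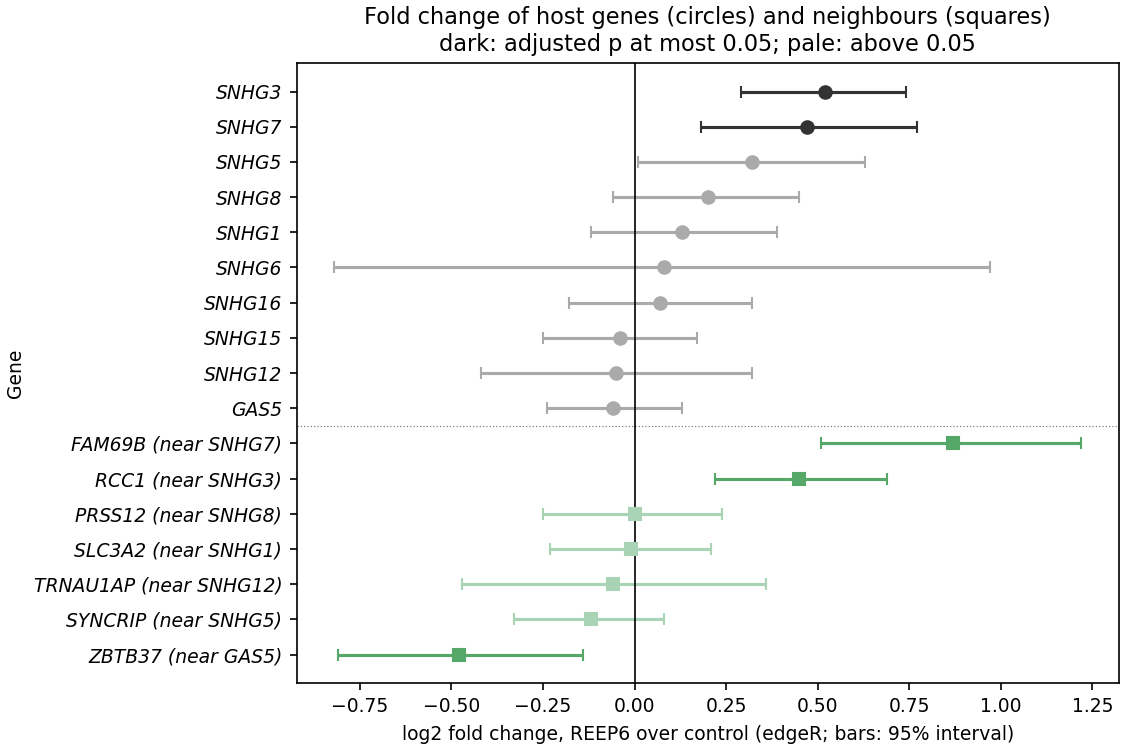
Log2 fold change of REEP6 over control from edgeR with its 95% interval, for the host genes (circles) and for neighbouring genes that passed the filter (squares), dark where the adjusted p is at most 0.05. SNHG3 and SNHG7 lie above 0, as do their neighbours RCC1 and FAM69B, and the interval of SNHG6 runs from -0.82 to 0.97.

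SNHG3 (ENSG00000242125, chromosome 1, 28505980 to 28510892, plus strand, GRCh38) hosts SNORA73A and SNORA73B, the U17 snoRNAs that take part in processing of the small ribosomal subunit RNA. It had 14.0 and 16.2 FPKM in the controls and 20.6 and 22.0 FPKM with REEP6. Both REEP6 libraries were above both controls. Its mean was 15.1 ± 1.57 FPKM in control cells and 21.3 ± 0.994 FPKM with REEP6 (SD, n = 2). This rise of 1.43-fold, 0.52 on the log2 scale with an SE of 0.102, passed the test (edgeR adjusted p 0.00674). When each library was left out in turn the log2 fold change stayed between 0.41 and 0.65 and the call was kept. By limma (FPKM with a pseudocount of 1) the limma adjusted p was 0.042. SNHG3 was the only host gene called in each of these fits.

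SNHG3 begins within RCC1, the gene for the nucleotide exchange factor of the GTPase Ran, on the same strand, with 37 bases between the annotated 5′ ends. The SNHG3 start printed above lies at position 28506043 of chromosome 1, where RefSeq also starts an RCC1 transcript, and the 30 bases shown are identical. RCC1 had 17.7 and 15.7 FPKM in the controls and 23.7 and 21.2 FPKM with REEP6, a log2 fold change of 0.45 ± 0.103 (SE) with an edgeR adjusted p of 0.012. Both genes of the pair were thus called higher, by similar amounts. The RCC1 call ended with equal FPKM sums (edgeR adjusted p 0.0575) and without REEP6 replicate 1 (0.0698), and limma on log2(FPKM + 1) gave a limma adjusted p of 0.0551. Of 4088 exonic bases of SNHG3, 242 are also exonic in RCC1, so reads there cannot be assigned to one of them.

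SNHG7 (ENSG00000233016, chromosome 9, 136721366 to 136728184, minus strand, GRCh38) hosts SNORA17A and SNORA17B. It had 26.1 and 20.7 FPKM in the controls and 34.9 and 28.6 FPKM with REEP6. The REEP6 libraries were above the controls, with a small gap between REEP6 replicate 2 and control replicate 1. Its mean was 23.4 ± 3.81 FPKM in control cells and 31.8 ± 4.39 FPKM with REEP6 (SD, n = 2). The rise was 1.39-fold, 0.47 on the log2 scale with an SE of 0.131, and the edgeR adjusted p was 0.0271. The call ended without control replicate 2 (0.34, edgeR adjusted p 0.0589) and without REEP6 replicate 1 (0.32, edgeR adjusted p 0.112). It also ended with a GC correction (edgeR adjusted p 0.0567), with equal FPKM sums (0.104) and by limma (limma adjusted p 0.113).

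SNHG7 overlaps FAM69B, a gene for a kinase-like membrane protein, tail to tail on the other strand. FAM69B had 4.92 and 5.69 FPKM in the controls and 8.55 and 10.5 FPKM with REEP6, 1.83-fold more (0.87 on the log2 scale, SE 0.159, edgeR adjusted p 0.00475). Of 4345 exonic bases of SNHG7, 1094 are also exonic in FAM69B. Without a stated strand setting, reads from these genes cannot be told apart there, and the part of FAM69B in the SNHG7 value was not tested.

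The RefSeq promoter table (GRCh38.p14) held 8 of the 10 host genes, and was searched on both strands for the TATA box (TATAAA), the E-box (CACGTG), the CCAAT box and the GC box (GGGCGG). In its 300 bases SNHG7 held the TATA box letters (11.5% of 35116 promoters), the E-box letters (7.26%) and the GC box letters (45.0%). SNHG3, the other member called, held 0 of the 4 motifs. Its bases were taken around a RefSeq start at position 28505943, not around the SNHG3 start printed above at 28506043. The 130 bases before the start of SNHG7 and the 10 from it are printed with these letters in capitals. The long capital run covers a pair of overlapping matches.
SNHG7 promoter, chr9:136728175-136728314, minus strand, GRCh38.p14: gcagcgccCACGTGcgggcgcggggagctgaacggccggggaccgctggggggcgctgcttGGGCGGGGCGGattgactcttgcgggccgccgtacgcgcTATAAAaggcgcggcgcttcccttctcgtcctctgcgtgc
The CCAAT box was found in GAS5 and SNHG5 (34.6% of all promoters), the TATA box also in SNHG1, and the GC box in 6 of the 8. A match is a description of these letters and says nothing of binding.

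SNHG5 (ENSG00000203875, chromosome 6, 85660950 to 85678748), known as U50HG from a lymphoma breakpoint, was the nearest to the threshold among the genes not called. It had 64.5 and 46.7 FPKM in the controls and 72.0 and 63.8 FPKM with REEP6, so control replicate 1 lay above REEP6 replicate 2 and the groups overlapped. The log2 fold change was 0.32 ± 0.139 (SE) with an unadjusted p of 0.0462 and an edgeR adjusted p of 0.122. Control replicate 2 was the low library: without control replicate 1 the log2 fold change was 0.57 (edgeR adjusted p 0.00159), and without control replicate 2 it was 0.13 (edgeR adjusted p 0.457). SYNCRIP, its nearest protein-coding neighbour at 17158 bases, had a log2 fold change of -0.12 and was not called (edgeR adjusted p 0.354).

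SNHG8 (chromosome 4, 118278709 to 118279823), the host of SNORA24, had 62.0 and 52.9 FPKM in the controls and 69.1 and 59.9 FPKM with REEP6. The groups overlapped, and in each group replicate 1 was the higher library. Its log2 fold change of 0.20 had a 95% interval from -0.06 to 0.45, or 0.957 to 1.37-fold (edgeR adjusted p 0.243). PRSS12, which ends 215 bases away on the other strand, had 9.24 and 8.4 FPKM against 9.24 and 8.02 FPKM and was not called (edgeR adjusted p 0.992).

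SNHG1 (chromosome 11, 62851988 to 62855914), with 7 snoRNA loci in this annotation, had 25.2 and 29.5 FPKM in the controls and 27.0 and 32.1 FPKM with REEP6. Here replicate 2 was the higher library of each group. The log2 fold change was 0.13, with an interval from -0.12 to 0.39 (0.921 to 1.31-fold, edgeR adjusted p 0.415). SLC3A2, the heavy chain of amino acid transporters, starts 188 bases away in the opposite direction. It had 46.2 and 39.9 FPKM in the controls and 43.7 and 40.0 FPKM with REEP6, a log2 fold change of -0.01 (edgeR adjusted p 0.94), so neither gene of this divergent pair was called.

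GAS5 (ENSG00000234741, chromosome 1, 173863900 to 173868882, minus strand) had the tightest interval of the 10. Its log2 fold change was -0.06 ± 0.0817 (SE), and its 95% interval ran from -0.24 to 0.13 (edgeR adjusted p 0.662). In the main fit alone this leaves out changes beyond 0.848 and 1.09-fold. The controls lay just above the REEP6 libraries in FPKM, and with a GC correction the log2 fold change was 0.08. With equal FPKM sums it was -0.19 ± 0.0938 (SE, edgeR adjusted p 0.168), so these limits depend on the scaling. ZBTB37, a zinc finger gene on the other strand whose 5′ end lies 800 bases inside that of GAS5, fell from 2.23 and 1.67 to 1.44 and 1.30 FPKM (log2 fold change -0.48 ± 0.15 SE, edgeR adjusted p 0.0439). The ZBTB37 call ended without control replicate 1 (-0.26, edgeR adjusted p 0.239) and without REEP6 replicate 2 (edgeR adjusted p 0.0936). It also ended with a GC correction (edgeR adjusted p 0.237), with DESeq2 (DESeq2 adjusted p 0.059) and by limma (limma adjusted p 0.211).

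SNHG15 (chromosome 7, 44983023 to 44986961), the host of SNORA9 and known as a short-lived transcript, had 12.5 and 12.3 FPKM in the controls and 11.8 and 11.8 FPKM with REEP6. The libraries within a group were nearly equal, and the log2 fold change of -0.04 had an interval from -0.25 to 0.17 (edgeR adjusted p 0.79). SNHG16 (chromosome 17, 76557766 to 76565348), the host of SNORD1A, SNORD1B and SNORD1C, had 10.3 and 11.4 FPKM against 10.1 and 12.2 FPKM, with replicate 2 higher in both groups. Its log2 fold change was 0.07, with an interval from -0.18 to 0.32 (edgeR adjusted p 0.707), and it was -0.06 with equal FPKM sums. SNHG12 (chromosome 1, 28578538 to 28583132), the host of SNORA16A, SNORA44, SNORA61 and SNORD99, had 4.43 and 4.21 FPKM against 3.54 and 4.63 FPKM. Both control values lay between the REEP6 values, and the log2 fold change was -0.05 with an interval from -0.42 to 0.32 (edgeR adjusted p 0.852). TRNAU1AP, which meets SNHG12 tail to tail and takes part in selenocysteine incorporation, had a log2 fold change of -0.06 (edgeR adjusted p 0.856). Neighbours of SNHG6, SNHG15 and SNHG16, namely MCMDC2, MYO1G, AC015802.6 and AC015802.4, were under the filter with at most 21 counts in any library.

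SNHG6 (ENSG00000245910, chromosome 8, 66921684 to 66926398, minus strand), the host of SNORD87, varied more within groups than any other of the 10. It gave 1494 and 633 counts in control cells against 1408 and 746 with REEP6, or 93.2 and 33.4 FPKM against 85.3 and 45.0 FPKM. The libraries numbered 1 were high in both groups and those numbered 2 were low. Scaled to library size, replicate 1 was 2.78-fold above replicate 2 in the controls and 1.92-fold above it with REEP6. The labels do not say what libraries of one number share.

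The log2 fold change of SNHG6 was 0.08 ± 0.4 (SE), with an interval from -0.82 to 0.97 or 0.568 to 1.96-fold (edgeR adjusted p 0.909), so neither a rise nor a fall of 1.5-fold was excluded by these libraries. Which library was left out decided its direction. It was 0.99 without control replicate 1 (edgeR adjusted p 0.00359) and 0.47 without REEP6 replicate 2 (0.0121), but -0.47 without REEP6 replicate 1 (0.0199) and -0.46 without control replicate 2 (0.123). Set side by side by number, REEP6 differed from control by -0.09 between the libraries numbered 1 and by 0.45 between those numbered 2, on the log2 scale of CPM (counts scaled to TMM-adjusted library size).

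**Figure D3:**
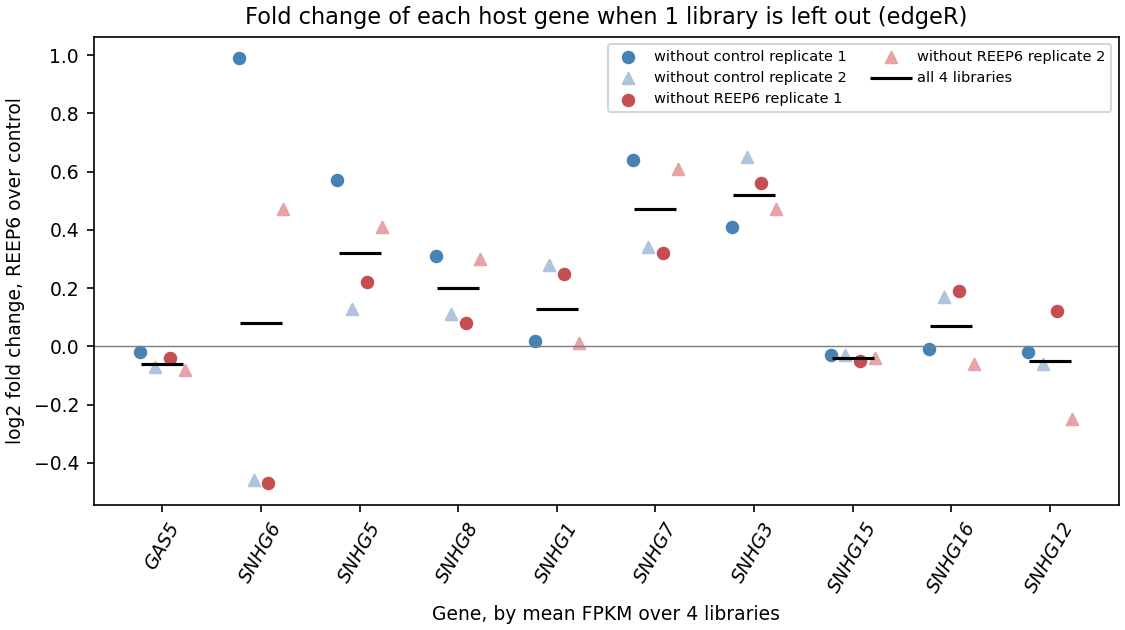
Log2 fold change of REEP6 over control for each host gene when 1 library is left out (coloured points) and with all 4 libraries (black bars). SNHG3 stays between 0.41 and 0.65 and SNHG15 near 0, while SNHG6 runs from -0.47 to 0.99.

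The spread of SNHG6 was set beside that of the other genes. The median absolute log2 difference between the libraries of a group was 0.16 in the controls and 0.14 with REEP6. The other 9 host genes differed by 0.01 to 0.46 on that scale. Of 2172 genes with a mean of at least 20 FPKM, 13 differed by at least 0.94 in both groups and in the same direction by number, SNHG6 among them. Of these 13, 10 are annotated as pseudogenes, most of them copies of ribosomal protein genes, whereas 31 of the 2172 are pseudogenes. All 10 were higher in the libraries numbered 1, for example RPL13AP5 with 243 and 72 counts in control cells against 328 and 91 with REEP6. Long non-coding SNHG19 (341 and 136 against 359 and 225 counts) and C6orf48, also called SNHG32 (330 and 147 against 318 and 189), showed the same order. Also among the 13, CHCHD10 (431 and 1039 against 518 and 1080) and FP236383.3 (8 and 545 against 12 and 663) were higher in the libraries numbered 2. This set was picked after its values were seen, and what separates the libraries was not tested.

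**Figure D4:**
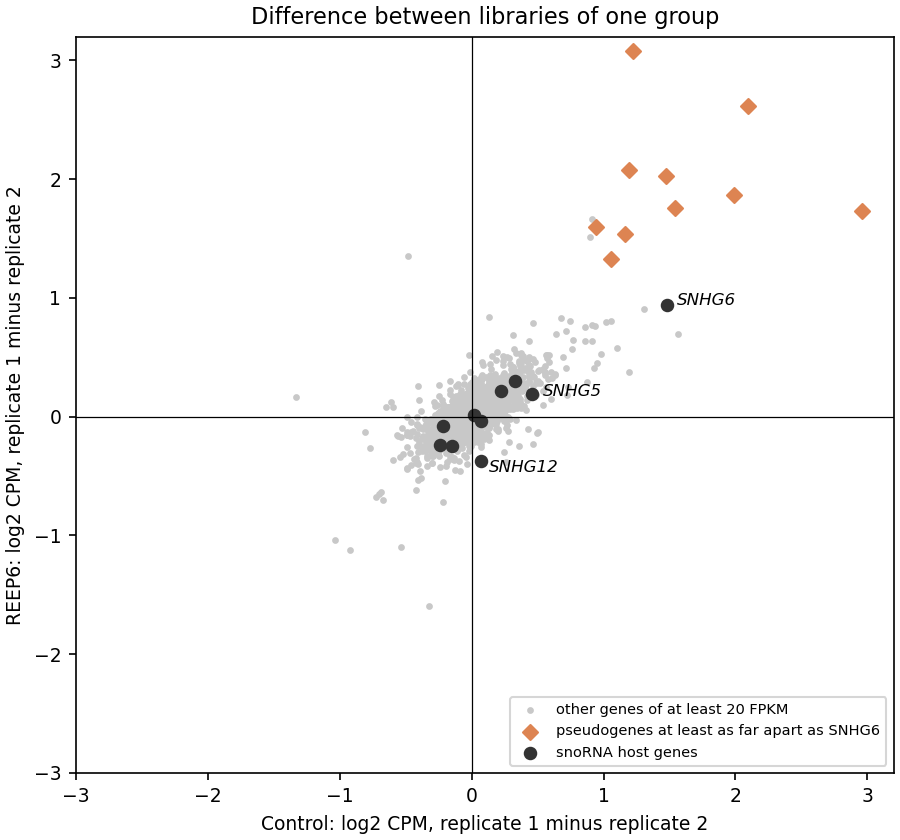
Log2 difference in CPM between replicate 1 and replicate 2 in the controls (x axis) and with REEP6 (y axis), for genes with a mean of at least 20 FPKM. FP236383.3 is the 1 gene lying outside the axes. SNHG6 and the pseudogenes (orange) sit at the upper right, and the other 9 host genes (black) lie within 0.46 of 0 on both axes.

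Without SNHG6, the remaining 9 host genes summed to 977 and 910 CPM in the controls and 1060 and 1044 with REEP6. With it the sums were 1092 and 951 against 1168 and 1101. On this TMM-adjusted scale both REEP6 libraries were above both controls, with a wider gap when SNHG6 was left out. In FPKM the sums of all 10 were 413 and 323 for control cells against 425 and 374 under REEP6, and there the first control library exceeded the second REEP6 library. No test was made of a sum.

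Other long non-coding snoRNA hosts were read from a list of 23 genes, of which 15 were measured. Of these 3 were higher, 0 were lower and 12 were not called, beside 10.9% higher and 14.2% lower among all genes, with a median log2 fold change of 0.16. DANCR, the host of SNORA26, went from 37.6 and 45.7 FPKM to 73.1 and 76.2 FPKM, a 1.82-fold rise (edgeR adjusted p 0.000889), and both REEP6 libraries were well above both controls. LRRC75A-AS1, also called SNHG29, rose from 112 and 88.1 to 150 and 130 FPKM (edgeR adjusted p 0.0135). LINC02001, also called SNHG30, rose from 6.93 and 6.95 to 9.14 and 10.4 FPKM (edgeR adjusted p 0.044). With equal FPKM sums 1 gene of the list was higher, beside 5.05% of all genes.

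Protein-coding snoRNA hosts moved both ways: of 30 measured, 6 were higher and 5 lower, with a median of 0.13. The elongation factor gene EEF2 (log2 fold change 0.45) and the initiation factor gene EIF4G1 (0.44) rose, while DKC1 (-0.43) and TAF1D (-0.47), a subunit of the RNA polymerase I factor SL1, fell. With limma on log2(FPKM + 1) 2 were higher and 2 lower. Proteins of the snoRNA particles had 6 of 18 higher and 2 lower, with a median of 0.27. NOP58, a core protein of box C/D particles, fell from 73.5 and 67.7 to 46.7 and 45.6 FPKM (edgeR adjusted p 0.00178). DKC1, the pseudouridine synthase of box H/ACA particles, fell from 42.2 and 38.7 to 30.6 and 28.2 FPKM (0.00875). Its partners in those particles went the other way. NHP2 rose by 0.69 on the log2 scale (edgeR adjusted p 0.0315) and NOP10 by 0.37 (0.0295), while GAR1 (0.33) was not called. RUVBL2, an ATPase of the assembly machinery, rose 1.37-fold and TCOF1, a nucleolar phosphoprotein, 1.39-fold. With limma on log2(FPKM + 1) or equal FPKM sums 0 of these genes were higher, and 2 and 4 were lower.

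Factors of nonsense-mediated decay, the pathway known to act on spliced GAS5 and SNHG1, had 3 of 16 higher and 3 lower, with a median of 0.08. UPF2 fell by 0.47 on the log2 scale, UPF3A by 0.36 and SMG1, the kinase of UPF1, by 0.56, while CASC3, an exon junction protein, rose by 0.47. Other transcripts known as targets of this decay had 2 of 18 higher and 3 lower, with a median of 0.05. GADD45A fell by 0.77 and ATF4 rose by 0.31, and RPL12 rose by 0.31. With equal FPKM sums 0 were higher (5.05% of all genes) and 5 lower, in a fit where the median of all genes was -0.14. Genes of the exosome and of 5′ to 3′ decay had 0 of 11 higher and 5 lower by edgeR (10.9% and 14.2% of all genes), with a median of -0.26. XRN1 fell by 0.61 on the log2 scale, DIS3 by 0.53, the exosome helicase gene MTREX by 0.50 and the decapping enzyme gene DCP2 by 0.36. With DESeq2 0 were higher and 4 lower (9.07% and 10.5% of all genes). With a GC correction 1 was lower, in a fit where the median of all genes was 0.03.

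Other mRNAs known for a 5′ pyrimidine run had 6 of 19 higher and 3 lower, with a median of 0.09. PABPC1 (0.49), VIM (0.46) and EEF2 rose, and EEF1A1, the most abundant of them, fell from 2560 and 2470 to 1910 and 1890 FPKM (edgeR adjusted p 0.0139). By limma (pseudocount 1) the list had 1 higher and 1 lower. Regulators of these mRNAs and of growth had 3 of 11 higher and 3 lower, with a median of -0.13. LARP1, which binds the capped pyrimidine run, rose by 0.43 on the log2 scale, EIF4EBP1 by 0.54 and EIF4EBP2 by 0.29, and TSC1, a brake on mTORC1, fell by 0.64. Without REEP6 replicate 1 the share of all genes called higher went from 10.9% to 7.19%, and fewer genes of these lists were higher: 1 protein-coding host, 2 proteins of the particles, 1 decay factor, 0 decay targets and 3 mRNAs with a pyrimidine run. Several of these lists share genes, and their counts stand beside 10.9% higher and 14.2% lower, and their medians beside -0.01, for all genes tested.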

How the data were processed

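In the tables the authors deposited, every gene of a library has its raw count and its FPKM, per the file headers. The submitters' processing notes name HISAT2 and HTSeq 0.13.5 on GRCh38 without roles. Annotation and strand setting are not stated. FPKM used the library's summed count and 1 length per gene (100% of 29161 genes with a count, relative tolerance 0.0001).

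Counts of genes with at least 1 FPKM in at least 2 libraries (13077) were TMM-scaled and tested by quasi-likelihood in edgeR 4.0.16 (R 4.3.3), two-sided, with a group term and 2 residual degrees of freedom, Benjamini-Hochberg adjusted over all genes tested. SE is the log2 fold change over the square root of F. DESeq2 1.42.0 and limma 3.58.1 were alternatives. The fit was tested on simulated data, where it recovered 44 of 100 changes of 1.5-fold, 35 of 50 of 2-fold and 45 of 50 of 3-fold. All 10 host genes were named, with their nearest protein-coding genes and genes on the other strand whose 5′ ends lay within 1000 bases. From each list up to 4 called genes with the smallest p were named, along with some others of the same lists. Members and lists were chosen with earlier results of these data known. Transcript sequences and annotation are from GENCODE 29, promoters from RefSeq.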

Additional observations from a re-analysis of the deposited data

How the results depend on the processing

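With all 4 libraries 2 host genes were higher and 0 lower (10.9% and 14.2% of all genes). The number higher was 1 with equal FPKM sums (5.05% of all genes), with a GC correction (9.23%) and at an adjusted p of 0.01 (3.79%). It was also 1 with limma at a pseudocount of 1 (4.85%) and of 0.1 (4.57%). With no filter on low values, over 29161 genes, SNHG5 passed as well (edgeR adjusted p 0.00691). The share of all genes called in that fit is not given here, so this pass has no background beside it. The libraries share replicate numbers, and deviations of same-numbered libraries correlated at 0.271 over 13077 genes. With only 2 pairs, and no label that says what a number shares, this was not taken as pairing. A replicate block gave 4 higher and 0 lower, and with a GC correction as well 6 higher. In these fits 22.6% and 22.3% of all genes were higher. Leaving out each library gave 1 to 4 higher and 0 to 1 lower, the lower one being SNHG6 without REEP6 replicate 1. Over the host genes and alternatives together, 143 log2 fold changes kept direction and side of the threshold, 11 newly passed, 6 no longer passed (all SNHG7) and 9 changed sign. The sign changes were GAS5 with a GC correction (0.08, also with the block), SNHG6 with equal FPKM sums (-0.07), without control replicate 2 (-0.46) and without REEP6 replicate 1 (-0.47), SNHG12 without REEP6 replicate 1 (0.12), and SNHG16 with equal FPKM sums (-0.06), without control replicate 1 (-0.01) and without REEP6 replicate 2 (-0.06). The cause was not tested. Over the fits that leave out 1 library, SNHG6 ran from -0.47 to 0.99, SNHG12 from -0.25 to 0.12 and SNHG16 from -0.06 to 0.19. SNHG12 was not tested at a minimum of 5 FPKM. edgeR's own filter was chosen after seeing the data. SNHG12, the least counted, had 200 to 273 counts per library and an SE of 0.164, and GAS5 had 4359 to 5264 and an SE of 0.0817. Counting error and spread between libraries were not separated.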
